A study of Mus musculus with 37 samples.

Results

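The genes described here are 9 genes of the circadian clock, of the 55401 genes listed in each deposited expression table: Ciart, Per1, Per2, Per3, Cry1, Cry2, Clock, Nr1d1 and Nr1d2. They were chosen by symbol. Per1 to Nr1d2 were taken as core clock genes, and Ciart was added because its values were higher in Bap1 knockout eggs than in control eggs. The MII egg values of Ciart are therefore given as a description with no test. RNA was sequenced from mouse oocytes, eggs and embryos to ask how loss of BAP1, a deubiquitinase that removes ubiquitin from histone H2A, alters the transcriptome. Controls were Bap1 flox/flox, and knockouts carried the same alleles and Gdf9-iCre, in which the Gdf9 promoter drives iCre recombinase in growing oocytes. Fully grown oocytes (FGO) and MII eggs came straight from these females. Embryos came from control or knockout eggs and wild-type sperm (x B6 for the early embryos, x PWK at embryonic day 6.5), so that the knockout embryos lacked maternal Bap1 and received a paternal allele. Their culture medium was KSOM.

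The 26 total RNA libraries covered fully grown oocytes, MII eggs, late 1-cell embryos and late 2-cell embryos with 2 control and 3 knockout libraries each, and early 2-cell embryos with 3 of each. The 11 poly(A) libraries of embryonic day 6.5 covered epiblast and visceral endoderm with 2 control and 2 knockout libraries each, and extraembryonic ectoderm with 1 control and 2 knockout libraries. Ages, and whether replicates came from separate animals, are not given in the sources used here, so p-values measure the spread between these libraries, which may be technical. Over the whole Bap1 gene, the early libraries held 16.3 to 29.9 FPKM (fragments per kilobase of transcript, scaled to sequencing depth) in controls and 3.76 to 11.7 in knockouts. At embryonic day 6.5 the ranges were 14.0 to 22.6 FPKM in controls and 18.3 to 33.8 in knockouts. FPKM is relative to the other RNAs of a library. A rise or fall between stages is therefore a change in share, and amounts per cell were not measured here. Early libraries summed to 300668 to 430784 FPKM, and their top gene took 6 to 23% of that. All 7 oocyte markers were at 1 FPKM or more in every early library, and each lineage of day 6.5 had its own markers highest. Of 12 cumulus and granulosa cell markers, between 1 and 2 reached 1 FPKM in any early library, with summed levels of 4.65 to 11.6 FPKM in controls and 1.60 to 4.01 in knockouts.

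In most mammalian cells the clock is a loop of transcription and translation. CLOCK pairs with BMAL1, encoded by Arntl, and binds E-box sequences to activate the Per and Cry genes, whose proteins return to the nucleus and repress that pair. NR1D1 and NR1D2 (REV-ERB alpha and beta) repress Arntl, ROR proteins oppose them, and CIART is a further repressor of the CLOCK and BMAL1 pair. In oocytes and cleaving embryos many of these transcripts are stored maternal RNAs, and a level in such cells is not a sign of a running rhythm.

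The promoter windows of 4 members are shown because they hold the E-box or D-box letters through which clock and PAR bZIP factors act on their targets. They were taken from RefSeq (GRCm38.p6), run from 250 bases before to 50 bases after the start of the gene, read 5′ to 3′ on the gene's strand, and carry the matches in capitals. The windows are chr3:95882179-95882478 (minus strand) for Ciart, chr11:69098699-69098998 (plus) for Per1, chr10:85185005-85185304 (minus) for Cry1 and chr4:151044616-151044915 (minus) for Per3.
Ciart: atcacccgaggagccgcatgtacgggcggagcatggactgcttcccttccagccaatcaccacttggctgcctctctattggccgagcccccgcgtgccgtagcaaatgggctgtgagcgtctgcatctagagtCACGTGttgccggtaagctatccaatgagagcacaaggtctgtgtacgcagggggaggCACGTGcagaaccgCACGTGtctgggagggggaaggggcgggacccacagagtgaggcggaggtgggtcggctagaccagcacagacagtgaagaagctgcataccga
Per1: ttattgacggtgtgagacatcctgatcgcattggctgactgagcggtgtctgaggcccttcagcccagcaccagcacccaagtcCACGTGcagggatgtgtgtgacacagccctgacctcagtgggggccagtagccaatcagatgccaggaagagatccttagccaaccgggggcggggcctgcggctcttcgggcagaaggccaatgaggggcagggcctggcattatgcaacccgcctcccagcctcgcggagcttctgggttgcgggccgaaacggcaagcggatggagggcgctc
Cry1: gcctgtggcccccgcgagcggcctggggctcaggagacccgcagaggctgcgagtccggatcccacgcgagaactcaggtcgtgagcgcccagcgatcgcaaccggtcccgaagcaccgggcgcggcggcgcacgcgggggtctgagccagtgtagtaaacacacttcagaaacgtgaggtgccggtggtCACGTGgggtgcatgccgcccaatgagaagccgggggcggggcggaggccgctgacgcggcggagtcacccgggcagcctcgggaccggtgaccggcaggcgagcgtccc
Per3: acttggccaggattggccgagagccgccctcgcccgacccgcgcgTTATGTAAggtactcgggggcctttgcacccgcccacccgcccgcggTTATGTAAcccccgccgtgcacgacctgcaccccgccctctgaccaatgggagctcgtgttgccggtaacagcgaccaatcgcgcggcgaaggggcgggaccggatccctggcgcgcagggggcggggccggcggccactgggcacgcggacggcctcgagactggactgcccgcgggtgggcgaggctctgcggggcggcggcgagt
In the Ciart window the E-box CACGTG occurs 3 times, with first bases 116, 58 and 44 bases before the start. Per1 has 1 E-box at 166 bases and Cry1 has 1 at 60 bases, while Per3 has the D-box TTATGTAA at 205 and 158 bases before the start. Both strands were searched for the E-box CACGTG, which is its own reverse complement, the CRE TGACGTCA, the ROR and REV-ERB element core TAGGTCA, and the D-box TTATGTAA or TTACGTAA, none of which overlapped another match in these windows. RefSeq entries were found for 8 of the 9 members (11 windows, with a second start for Per1 and further starts for Clock). Per2 was not matched. The E-box was in windows of 3 of these 8 genes, the D-box in 1, and the other 2 motifs in 0. Among all 27025 genes of the table, 8.093% had a window with the E-box, 1.232% with the D-box, 2.031% with the CRE and 2.968% with the TAGGTCA core. Per window, 7.15% of 32851 windows of the same length held the E-box, 1.056% the D-box, 1.79% the CRE and 2.606% the core. Of the 11 member windows, 3 held the E-box and 1 the D-box. Of the 17 other clock pathway genes in the table, 2 had a window with the E-box, 2 with the TAGGTCA core (Arntl and Nfil3), 1 with the CRE and 1 with the D-box.

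Ciart (ENSMUSG00000038550.10, chr3:95878503-95882251, minus strand, GENCODE M21 on GRCm38) was higher in knockouts at 3 of the 4 early stages that were tested. In fully grown oocytes it was 2.31 and 2.31 FPKM in controls and 4.78, 6.06 and 6.15 in knockouts. In late 1-cell embryos it was 2.25 and 1.91 FPKM in controls and 5.24, 5.65 and 3.21 in knockouts. In late 2-cell embryos it was 2.57 and 2.75 FPKM in controls and 8.11, 5.31 and 6.49 in knockouts. In each of these stages every knockout library lay above every control library. The differences on the log2(FPKM + 1) scale were 1.01 ± 0.20 (SE, adjusted p = 0.001372), 0.86 ± 0.20 (adjusted p = 0.004982) and 1.05 ± 0.33 (adjusted p = 0.01787), from limma with Benjamini-Hochberg adjustment over all genes tested. MII eggs, on which Ciart was chosen, held 1.96 and 2.12 FPKM in controls and 5.40, 5.47 and 8.49 in knockouts. In early 2-cell embryos the groups overlapped, with 0.639, 1.10 and 0 FPKM in controls and 1.15, 0.850 and 1.95 in knockouts (difference 0.59 ± 0.35, adjusted p = 0.3118).

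With MII eggs left out, the knockout effect on Ciart did not differ by test between neighbouring stages (limma, lowest adjusted p = 0.5926). The differences were -0.14 ± 0.29 from fully grown oocytes to late 1-cell embryos, -0.27 ± 0.40 from there to early 2-cell embryos and 0.46 ± 0.48 to late 2-cell embryos. At the late 1-cell stage the call was lost without control replicate 2 (adjusted p = 0.07566), with equal stage weights (0.05224) and with a pseudocount of 0.1 in place of 1 (0.05324). At the late 2-cell stage it ran from 0.05204 to 0.0988 when either control library, knockout replicate 1 or knockout replicate 3 was left out, and it was 0.173 with no filter on low values and 0.09542 with a pseudocount of 0.1. Of the 50-base words in Ciart transcripts, 11.9% also occur in Gm9176, which makes its counts uncertain where that gene is expressed. Gm9176 reached at most 0.124 FPKM in oocytes, eggs and late 1-cell embryos. In late 2-cell embryos it held 17.9 to 23.4 FPKM in controls and 9.71 to 13.2 in knockouts. How shared reads were divided is not known, and the part of Gm9176 in the late 2-cell values of Ciart was not tested. The antisense gene C920021L13Rik, which shares no exonic bases with Ciart, stayed at or below 1.07 FPKM in the early libraries.

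Ciart fell from the late 1-cell to the early 2-cell stage and rose again by the late 2-cell stage in both genotypes. In controls the changes were -1.03 ± 0.29 (adjusted p = 0.006504) and 1.28 ± 0.36 (adjusted p = 0.004783), and in knockouts -1.30 ± 0.28 (adjusted p = 0.000696) and 1.73 ± 0.32 (adjusted p = 0.0001462). These steps share the early 2-cell libraries, 1 of which listed Ciart at 0, and without that control library the fall in controls had an adjusted p of 0.07814. The part of Gm9176, which was at 0.155 to 2.58 FPKM in early 2-cell controls, in the later rise was not tested. Ordered by control mean, Ciart was highest in late 2-cell embryos (2.66 ± 0.13 FPKM, SD, n = 2), then fully grown oocytes (2.31, n = 2), late 1-cell embryos (2.08 ± 0.24, n = 2), MII eggs (2.04 ± 0.11, n = 2) and early 2-cell embryos (0.581 ± 0.55, n = 3). The late 1-cell and MII egg values overlapped. In knockouts the late 2-cell mean (6.64 ± 1.4 FPKM, n = 3) and the MII mean (6.45 ± 1.8, n = 3) were within 1 SD of each other.

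**Figure D1:**
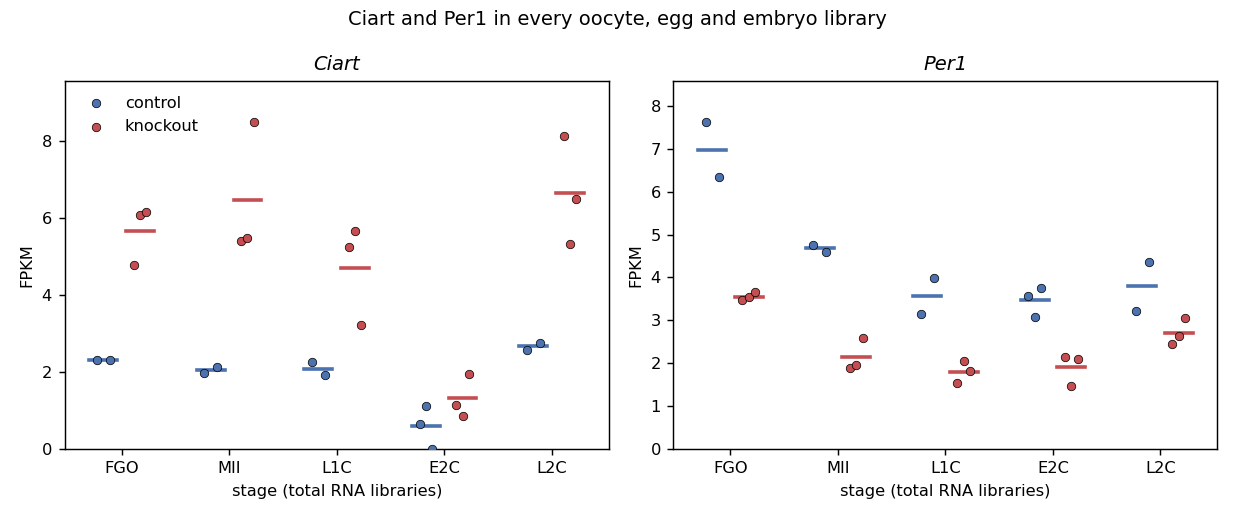
Ciart and Per1 in FPKM (vertical axis, from 0) in each of the 26 total RNA libraries, by stage (FGO fully grown oocyte, MII egg, L1C late 1-cell, E2C early 2-cell, L2C late 2-cell). Points are libraries (blue control, red knockout) and lines are group means. Knockout points for Ciart lie above all control points at every stage other than E2C, and knockout points for Per1 lie below all control points at all 5 stages.

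Per1 (ENSMUSG00000020893.17, chr11:69095217-69109960, plus strand), a repressor of the CLOCK and BMAL1 pair, was lower in knockouts. Fully grown oocytes held 7.63 and 6.33 FPKM in controls and 3.46, 3.54 and 3.65 in knockouts. Late 1-cell embryos held 3.14 and 3.98 FPKM in controls and 1.54, 2.04 and 1.80 in knockouts. The groups did not overlap, and the log2 differences were -0.81 ± 0.12 (limma adjusted p = 6.091e-05) and -0.70 ± 0.12 (adjusted p = 0.0003149). In MII eggs Per1 was 4.77 and 4.58 FPKM in controls and 1.89, 1.96 and 2.59 in knockouts. In early 2-cell embryos it was 3.57, 3.07 and 3.75 FPKM in controls and 2.14, 1.46 and 2.10 in knockouts. In late 2-cell embryos it was 3.21 and 4.36 FPKM in controls and 2.44, 2.64 and 3.04 in knockouts. The knockout values were below all control values in these 3 stages too, but the tests did not pass in early 2-cell embryos (-0.63 ± 0.21, adjusted p = 0.05091) or late 2-cell embryos (-0.36 ± 0.20, adjusted p = 0.1759). With all libraries weighted equally, the early 2-cell adjusted p was 0.001791, but that weighting made more false calls at this stage in simulated data. The difference of the knockout effect between neighbouring stages, MII eggs left out, was at most 0.27 ± 0.29 in size, with adjusted p of 0.6049 or more. Per1 fell from fully grown oocytes to MII eggs by 0.49 ± 0.13 in controls (adjusted p = 0.02394) and by 0.54 ± 0.10 in knockouts (adjusted p = 0.001168), but the call in controls was lost (adjusted p = 0.1041 to 0.2804) when fully grown oocyte control replicate 1 or either MII control library was left out, and under 4 other settings (0.06003 to 0.2755: equal weights, a pseudocount of 0.1, centring and a separate fit).

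The other Period genes differed from Per1. Per3, another PER protein, was abundant, at 17.4 to 21.0 FPKM in fully grown oocytes and 13.8 to 16.6 in late 2-cell embryos. In early 2-cell embryos it was 19.3, 18.4 and 18.9 FPKM in controls and 25.3, 23.5 and 21.5 in knockouts. These values did not overlap, and the difference of 0.30 ± 0.11 did not pass the test (adjusted p = 0.09707). In controls Per3 rose from MII eggs (19.6 and 18.7 FPKM) to late 1-cell embryos (25.6 and 26.8 FPKM) by 0.43 ± 0.07 (adjusted p = 9.108e-05). It then fell by 0.45 ± 0.10 to the early 2-cell stage (adjusted p = 0.0005771) and by 0.37 ± 0.12 to the late 2-cell stage (adjusted p = 0.01071, and 0.08088 without late 2-cell control replicate 1). In knockouts the rise came from fully grown oocytes to MII eggs instead (0.27 ± 0.06, adjusted p = 0.002511, and 0.05499 with equal weights), where MII knockouts held 23.8, 24.1 and 23.0 FPKM. Whether that step differed between genotypes was not tested. Per2 did not reach 1 FPKM in any early library and was not tested. Its highest values were 0.719, 0.548 and 0.697 FPKM in late 2-cell knockouts, against 0.228 and 0.180 in controls.

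Cry1 and Cry2 encode cryptochromes, the partners of PER in repression, and stood far apart in level. Cry1 was the member with the highest FPKM in the early libraries. It lay between 59.5 and 91.0 FPKM in all 26, and no stage step or knockout effect passed the test. In late 2-cell embryos it was 68.7 and 66.4 FPKM in controls and 76.1, 78.0 and 86.3 in knockouts, without overlap (0.24 ± 0.13, adjusted p = 0.1479). Cry2 stayed below 1 FPKM from fully grown oocytes to late 1-cell embryos, with 0.441 and 0.420 FPKM in control and 0.262, 0.230 and 0.242 in knockout fully grown oocytes. It rose from the early to the late 2-cell stage by 0.96 ± 0.21 in controls (adjusted p = 0.0007407) and 0.72 ± 0.19 in knockouts (adjusted p = 0.004331), to 1.21 to 1.89 FPKM. Centring libraries on their medians, or leaving out early 2-cell knockout replicate 1, took the adjusted p in knockouts to 0.09564 or 0.05151.

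Clock, the DNA-binding partner of BMAL1, rose in FPKM from the oocyte to the early 2-cell stage. Control values were 21.1 and 20.3 FPKM in fully grown oocytes, 25.2 and 22.9 in MII eggs, 29.8 and 32.3 in late 1-cell embryos, 49.4, 47.8 and 48.2 in early 2-cell embryos, and 46.2 and 50.5 in late 2-cell embryos. The steps from MII eggs to late 1-cell embryos (0.35 ± 0.10, adjusted p = 0.0124) and on to early 2-cell embryos (0.63 ± 0.14, adjusted p = 0.0008742) passed the test in controls. In knockouts, steps of 0.30 ± 0.08 (adjusted p = 0.01785), 0.26 ± 0.08 (adjusted p = 0.03542) and 0.73 ± 0.13 (adjusted p = 0.0001274) passed up to the early 2-cell stage. The smaller steps, into MII eggs in knockouts and into late 1-cell embryos in both genotypes, did not pass with equal weights (adjusted p = 0.07485 to 0.1713), those into late 1-cell embryos when fitted alone (0.06464 and 0.1264), that in knockouts with no filter (0.06311) or TPM scaling (0.09855), or without some single libraries (0.05962 to 0.2859). These were oocyte knockout replicate 3 and MII knockout replicate 1 for the first step, replicate 2 of the MII and late 1-cell controls for the second in controls, and replicates 2 and 3 of the MII and late 1-cell knockouts for the second in knockouts. Knockout Clock values were 16.6, 18.0 and 15.8 FPKM in fully grown oocytes and 20.9, 29.2 and 25.8 in late 1-cell embryos, below all control values of those stages. The differences were -0.29 ± 0.10 (adjusted p = 0.05013) and -0.30 ± 0.10 (adjusted p = 0.03877). The latter call was lost in 4 of the 5 fits that left out a library (adjusted p = 0.05018 to 0.2885), knockout replicate 2 being the exception, and under 5 other settings (0.072 to 0.1769: equal weights, no filter, TPM scaling, centring and a separate fit).

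Nr1d1 and Nr1d2, the REV-ERB repressors, moved apart between the 2-cell stages. Nr1d1 fell in controls from 4.95, 7.11 and 8.82 FPKM in early to 2.33 and 2.83 FPKM in late 2-cell embryos (-1.13 ± 0.24, adjusted p = 0.0003749). In knockouts it was 9.16, 7.29 and 4.44 FPKM early and 4.06, 5.37 and 5.15 late (-0.40 ± 0.21, adjusted p = 0.1353). The late 2-cell knockout values were all above those of controls, by 0.71 ± 0.22 (adjusted p = 0.0155), and the difference of this effect from the early 2-cell stage was 0.73 ± 0.32 (adjusted p = 0.125). The late 2-cell call was lost without control replicate 1 (adjusted p = 0.1306), knockout replicate 2 (0.05837) or knockout replicate 3 (0.05905), with no filter on low values (0.1371) and with a replicate block (0.1001). Nr1d1 shares 263 exonic bases, or 8.547% of its exonic length, with Thra on the opposite strand. Thra was higher in knockouts with no overlap at all 5 early stages, for example 15.7 to 17.2 FPKM in control and 20.6 to 23.2 in knockout late 2-cell embryos, and whether reads were assigned by strand is not given in the sources used here. Its part in the values of Nr1d1 was not tested. Nr1d2 rose over the same interval, from 1.12, 1.80 and 1.13 FPKM to 5.51 and 4.72 in controls (1.39 ± 0.25, adjusted p = 9.115e-05) and from 1.63, 1.21 and 2.45 FPKM to 6.83, 3.98 and 5.40 in knockouts (1.21 ± 0.23, adjusted p = 0.0001788). Of its 50-base words 5.13% also occur in AC170187.1, so its counts are uncertain to that extent.

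**Figure D2:**
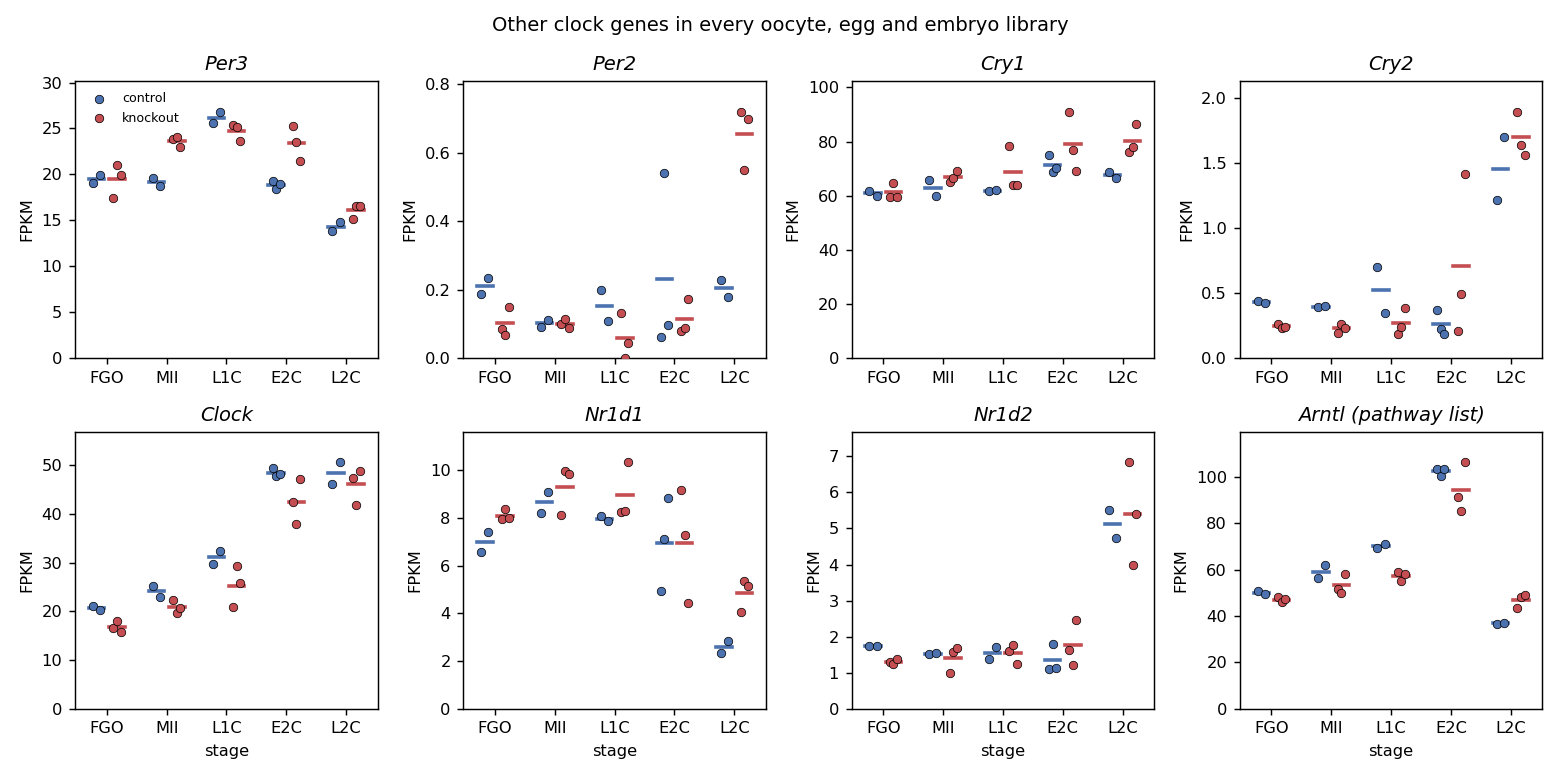
The other members and Arntl in FPKM (vertical axes, each from 0 on its own scale) in each total RNA library by stage. Points are libraries (blue control, red knockout) and lines are group means. Clock climbs to about the same level at E2C and L2C, Cry2 and Nr1d2 step up at L2C, and Arntl peaks at E2C.

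Read against all genes, between 0 and 3 members passed the test of a knockout effect at any early stage. Ciart, chosen for its rise in knockout eggs, is counted wherever it passed or did not overlap. The counts are therefore not free of that choice, and the shares of all genes are of genes not chosen so. In fully grown oocytes 2 of the 8 members kept by the low-value filter passed (Ciart higher, Per1 lower), where 13.9% of the 15184 genes tested did. In late 1-cell embryos 3 of 8 passed (Ciart higher, Per1 and Clock lower) against 17.6%. In early 2-cell embryos 0 of 8 passed against 13.5% (limma, 2 of 8 at an unadjusted p under 0.05), and in late 2-cell embryos 2 of 8 (Ciart and Nr1d1, both higher) against 34.2%. By non-overlap of libraries alone, counted over all 9 members, 2 were higher and 5 lower in fully grown oocytes, where 17.7% and 24.1% of all genes were. These shares, and those that follow, are of the 15184 genes kept by the filter, which leaves out Per2. Per2, with values below 1 FPKM, is among the lower members in oocytes and among the higher members in late 2-cell embryos. In late 2-cell embryos 5 were higher and 1 lower, against 29.1% and 27.7%. In late 1-cell embryos 3 were higher and 3 lower (22% and 20.9% of all genes), and in early 2-cell embryos 1 was higher and 2 lower (14.6% and 15.1%). In MII eggs, the contrast on which Ciart was chosen, 2 were higher (Ciart itself and Per3) and 3 lower, beside 19.8% and 21.9% of all genes. The median knockout effect over the 8 members was -0.10 in fully grown oocytes, -0.04 in late 1-cell, 0.18 in early 2-cell and 0.15 in late 2-cell embryos, beside 0, 0.01, 0 and 0.03 over all genes tested. No member passed the test of a difference of the knockout effect between neighbouring stages, MII eggs left out. Of all genes 0.171%, 3.35% and 18.9% did in order of stage (limma, 0, 2 and 1 of 8 members at an unadjusted p under 0.05).

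For the stage steps in controls, 1 of 7 members (Per1) passed from fully grown oocytes to MII eggs, and it was lower, beside 5.39% of all genes in either direction and 4.1% lower. On to late 1-cell embryos 2 of 7 passed (Per3 and Clock, both higher), beside 25.4% and 9.6% higher. On to early 2-cell embryos 3 of 8 passed, 1 higher and 2 lower, beside 47.2% of all genes, 18.1% higher and 29.1% lower. On to late 2-cell embryos 5 of 8 passed, 3 higher and 2 lower, beside 51.7%, 29.2% higher and 22.5% lower. In knockouts the first step had 3 of 7, 2 higher and 1 lower, beside 13.8%, 6.49% higher and 7.35% lower. The next had 1 of 7, higher (Clock), beside 16.4% and 5.36% higher. The third had 2 of 8, 1 higher and 1 lower, beside 41.7%, 15.2% higher and 26.5% lower, and the last had 4 of 8, 3 higher and 1 lower, beside 45.5%, 27.4% higher and 18.1% lower. Ciart was left out of the steps that use MII eggs, and consecutive steps share the libraries of the stage between them.

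**Figure D3:**
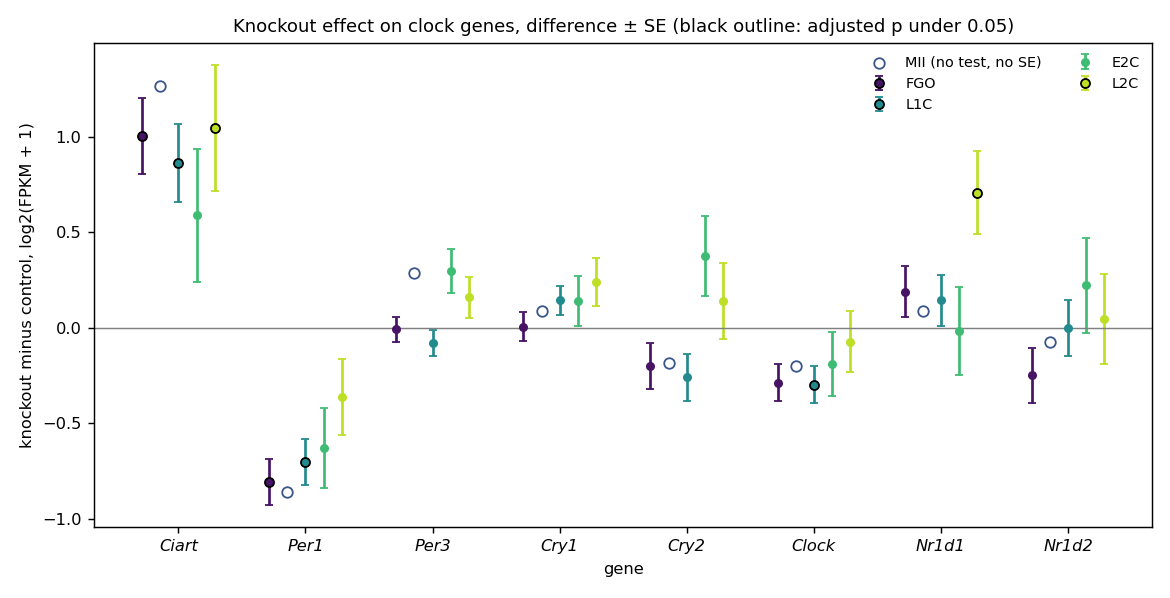
Knockout minus control on the log2(FPKM + 1) scale (vertical axis) for the 8 members kept by the filter, at 5 stages. Points are differences of group means, bars are SE from the shared limma fit, MII eggs are open points without a bar or test, and a black outline marks an adjusted p under 0.05. Ciart is above 0 and Per1 below 0 at every stage. Within each stage the other members lie nearer to 0 than both, with the exception of Nr1d1 at L2C, which lies farther from 0 than Per1.

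Of a list of 22 further clock pathway genes, 19 were kept by the filter in the early libraries. Arntl, whose protein is the partner of CLOCK, was at 50.6 and 49.5 FPKM in control fully grown oocytes. It rose through each step in controls to 104, 101 and 104 FPKM in early 2-cell embryos (last step 0.54 ± 0.10, adjusted p = 7.81e-05) and fell to 36.6 and 37.2 FPKM in late 2-cell embryos (-1.45 ± 0.12, adjusted p = 1.652e-09). In knockouts it was lower in late 1-cell embryos (59.1, 55.1 and 58.0 FPKM against 69.2 and 71.0, -0.28 ± 0.07, adjusted p = 0.004475). In late 2-cell embryos it was higher (43.4, 48.1 and 48.9 FPKM, 0.33 ± 0.11, adjusted p = 0.02012). The knockout effect on Arntl was -0.09 in fully grown oocytes and -0.13 in early 2-cell embryos, neither past the test, and -0.15 in MII eggs. The late 1-cell call for Arntl was lost without control replicate 2 (adjusted p = 0.06592). The late 2-cell call was lost without either control library, knockout replicate 2 or knockout replicate 3 (0.06286 to 0.1056), with no filter (0.1491) and with a replicate block (0.09669), and those of the first 2 steps in controls without 3 of their 4 libraries each (0.05323 to 0.3366; MII control replicate 1 and replicate 2, in that order, were the exceptions). Both steps were also lost with equal weights (0.4258 and 0.1119), TPM scaling (0.09453 and 0.0507) and a separate fit (0.1732 and 0.05995), and the first with no filter (0.05897).

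In knockouts, the list genes that passed were 2 higher and 0 lower in fully grown oocytes, 1 and 1 in late 1-cell embryos, 5 and 0 in early 2-cell embryos and 7 and 0 in late 2-cell embryos, beside 3.91% and 9.97%, 7.6% and 10%, 6.2% and 7.28%, and 17% and 17.2% of all genes. Bhlhe40, which encodes the E-box repressor DEC1, was higher at all 4 stages, from 0.37 ± 0.09 in fully grown oocytes (12.2 and 13.1 FPKM against 16.3, 16.8 and 16.7, adjusted p = 0.005083) to 0.98 ± 0.14 in late 2-cell embryos (adjusted p = 1.891e-05). The oocyte call for Bhlhe40 was lost without control replicate 1 (adjusted p = 0.08484) and with equal weights (0.1225). Its late 1-cell call (0.31 ± 0.09, adjusted p = 0.01658) was lost without control replicate 1 (0.218) or knockout replicate 2 (0.06785), with equal weights (0.1944), in a separate fit (0.05336) and with a replicate block (0.05422). Timeless, named for a fly clock gene, was higher in fully grown oocytes (0.30 ± 0.10, adjusted p = 0.03936), a call lost without either control library, knockout replicate 1 or knockout replicate 3 (0.06939 to 0.2496) and under 6 other settings (0.05109 to 0.3354), with a pseudocount of 0.1 and centring as the exceptions. In early 2-cell embryos the largest changes were Timeless (0.77 ± 0.17, adjusted p = 0.003584), Nfil3, a D-box repressor (0.72 ± 0.16, adjusted p = 0.004676), and Btrc, a ubiquitin ligase subunit that acts on PER (0.65 ± 0.14, adjusted p = 0.003498, and 0.07985 in a separate fit). The median effect over the 19 genes was 0.12, 0.07, 0.15 and 0.25 from fully grown oocytes to late 2-cell embryos, beside 0, 0.01, 0 and 0.03 over all genes.

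The largest change of the list was Dbp, a D-box activator and a known target of the CLOCK and BMAL1 pair, in late 2-cell embryos. Dbp was at or below 0.725 FPKM in every library up to the early 2-cell stage. It reached 1.69 and 2.23 FPKM in late 2-cell controls and 7.08, 10.0 and 9.49 FPKM in knockouts, a difference of 1.73 ± 0.18 (adjusted p = 4.098e-07). Bhlhe40 held 5.40 and 5.80 FPKM in late 2-cell controls and 10.2, 14.5 and 11.7 in knockouts. Arntl2, a paralog of Arntl, held 23.5 and 22.5 FPKM in controls and 41.8, 41.1 and 37.8 in knockouts (0.78 ± 0.11, adjusted p = 9.31e-06). The summed level of 5 2-cell embryo markers moved with genotype as well, at 191 to 244 FPKM in controls and 70.5 to 152 in knockouts of the early 2-cell stage, and 95.4 to 101 in controls and 264 to 343 in knockouts of the late 2-cell stage. The 7 oocyte markers summed to 490 to 516 FPKM in controls and 797 to 923 in knockouts of the late 2-cell stage. Composition differed there too. Gm23935, the top gene, took 20.2 and 23.1% of summed FPKM in late 2-cell controls and 16.5, 17.3 and 15.3% in knockouts. The FPKM of all genes summed to 404518 and 430784 in these controls and 380397, 381737 and 371188 in these knockouts. Scaling to TPM divides each library by its summed FPKM, and the counts of members called with it are given below. The part of the marker and top gene differences in the 2-cell values of Ciart, Nr1d1, Dbp and the other genes above was not tested.

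**Figure D4:**
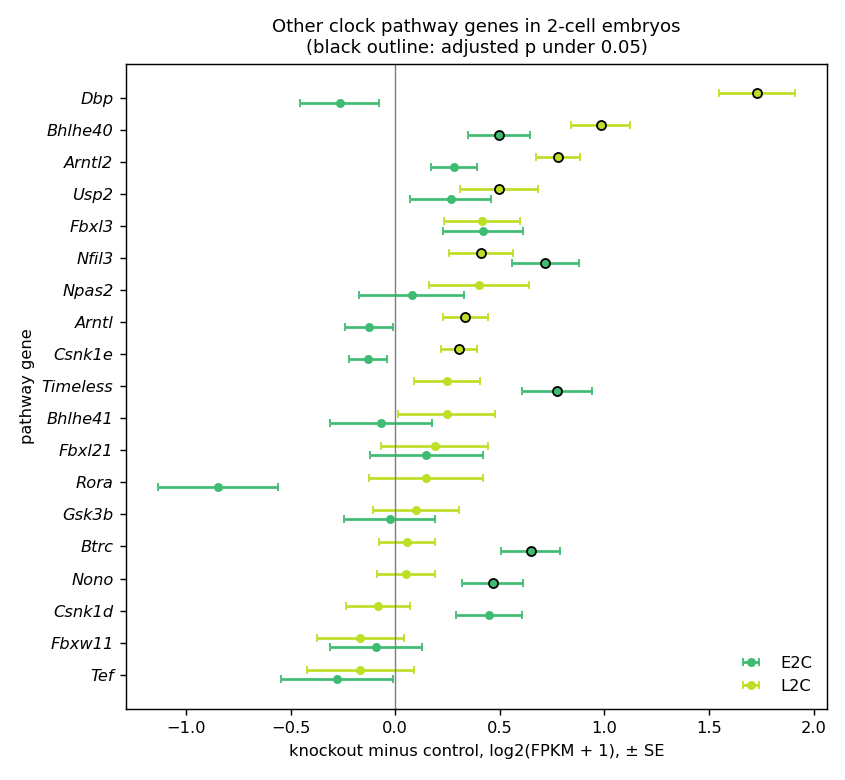
Knockout minus control on the log2(FPKM + 1) scale (horizontal axis, bars SE) for the 19 other clock pathway genes kept by the filter, in early (E2C) and late (L2C) 2-cell embryos. A black outline marks an adjusted p under 0.05, and genes are sorted by the L2C value. Dbp lies at 1.73 at L2C, apart from the other genes, and all outlined points lie above 0.

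In the control steps of the list, 1 of 19 genes passed from fully grown oocytes to MII eggs (Arntl, 0.24 higher), beside 1.3% of all genes higher and 4.1% lower. On to late 1-cell embryos 3 were higher and 1 lower, beside 9.6% and 15.8%. On to early 2-cell embryos 3 were higher and 6 lower, beside 18.1% and 29.1%, and on to late 2-cell embryos 4 were higher and 12 lower, beside 29.2% and 22.5%. From MII eggs to late 1-cell embryos Gsk3b (0.37), Arntl (0.24) and Arntl2 (0.19) rose and Usp2 fell by 0.36, and each of these calls was lost in at least 3 of the 4 fits that left out a library. On to early 2-cell embryos Btrc fell by 1.89, Timeless by 1.46 and Npas2, a paralog of Clock, by 1.20, while Arntl (0.54), Dbp (0.49) and Arntl2 (0.25) rose. The call for Dbp was lost without early 2-cell control replicate 1 (adjusted p = 0.1412) or replicate 3 (0.05259). That for Arntl2 was lost without either late 1-cell control or early 2-cell control replicate 1 or 2 (0.06841 to 0.1396), in a separate fit (0.0756) and under TPM scaling (0.6517). From the early to the late 2-cell stage Npas2 fell by 2.06, Rora by 1.50 and Arntl by 1.45. Over that step Tef, a PAR bZIP factor like Dbp, rose by 2.34, Fbxw11 by 1.30 and Dbp by 1.06. Tef went from 0.828, 0.324 and 0.670 FPKM to 7.80 and 6.42 FPKM in controls. In knockouts the counts were 2 higher and 0 lower (6.49% and 7.35% of all genes), 3 and 0 (5.36% and 11%), 3 and 6 (15.2% and 26.5%), and 4 and 9 (27.4% and 18.1%) in the same order. Dbp and Tef rose there by 3.06 and 2.45 from the early to the late 2-cell stage, and Arntl fell by 0.99.

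At embryonic day 6.5 the poly(A) table was fitted apart, since its libraries were made with another kit, and levels are not compared with those of the early table. Ciart had the highest FPKM of the members in 6 of the 11 libraries, Cry1 in 4 and Cry2 in 1. It was 37.3 FPKM in the control and 22.6 and 31.6 FPKM in knockouts of extraembryonic ectoderm. Epiblast held 30.7 and 24.5 FPKM in controls and 6.71 and 11.5 FPKM in knockouts. In visceral endoderm it was 12.8 and 3.31 FPKM in controls and 7.22 and 1.49 FPKM in knockouts, replicate 1 being the higher in each genotype. Averaged over genotypes, Ciart was higher in extraembryonic ectoderm (2.47 ± 0.51, limma adjusted p = 0.006805) and in epiblast (1.50 ± 0.46, adjusted p = 0.02744) than in visceral endoderm, and the difference of 0.97 ± 0.51 between the first 2 did not pass (adjusted p = 0.2533). The epiblast difference lost its call without any of 5 single libraries (adjusted p = 0.05329 to 0.1012: epiblast control replicates 1 and 2, epiblast knockout replicate 2 and replicate 2 of either visceral endoderm group), and with no filter on low values (0.1381). In every lineage difference the lone extraembryonic ectoderm control is assumed to vary like the other groups.

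The maternal knockout effect on Ciart in epiblast was -1.53 ± 0.65 and in visceral endoderm -0.77 ± 0.65, both at an adjusted p of 1. None of the 13914 genes tested passed in epiblast (0% of genes), 1 passed in visceral endoderm (0.00719%), and 0 of the 9 members passed in either (limma, with 1 and 0 members and 469 and 248 genes at an unadjusted p under 0.05). By non-overlap alone 1 member was lower (Ciart) and 1 higher (Nr1d1) in epiblast, against 9.29% and 14.7% of genes. In visceral endoderm 1 was lower (Per1) and 1 higher (Cry1), against 9.87% and 14.4%. The median effect over the members was 0.25 in epiblast and -0.13 in visceral endoderm, beside 0.06 and 0.04 over all genes. Without visceral endoderm control replicate 1, or without knockout replicate 2, the value for Ciart there turned to 0.07 or 0.10. Over the visceral endoderm knockout libraries, summed maternal decidua markers ran from 3.92 to 25.9 FPKM and summed blood markers from 0.0259 to 32.2 FPKM. The controls held at most 2.11 and 0.200, and the part of such RNA in these values was not tested. The effect on Arntl was -0.41 in epiblast, 0.75 in visceral endoderm and 0.25 in extraembryonic ectoderm, the first 2 at an adjusted p of 1 and the last without a test, and 0 of the 16 list genes kept here passed in epiblast or visceral endoderm (limma, 0 and 0 at an unadjusted p under 0.05).

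Among the Period genes at day 6.5, Per1 and Per3 depended more on the replicate than on the genotype in epiblast. Per1 was 3.38 and 0.746 FPKM in controls and 6.15 and 0.566 in knockouts, with replicate 1 high in each genotype. Per3 followed the same order, with 2.28 and 0.847 FPKM in controls and 3.94 and 0.747 in knockouts. Per2 was 1.31 to 1.48 FPKM in visceral endoderm and 0.305 to 0.723 FPKM in the other lineages, without overlap. Its differences were -0.63 ± 0.18 for epiblast (adjusted p = 0.02109) and -0.65 ± 0.20 for extraembryonic ectoderm (adjusted p = 0.04827) against visceral endoderm. The latter was lost without any single library of those 2 lineages that could be left out (adjusted p = 0.07635 to 0.1349), with a pseudocount of 0.1 (0.07405), in a separate fit (0.05863) and with a replicate block (0.09315), and the former without epiblast control replicate 2, visceral endoderm control replicate 1 or knockout replicate 2 (0.05028 to 0.06977).

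Cry2 was higher in epiblast (7.29, 3.93, 8.93 and 4.15 FPKM) than in visceral endoderm (1.25, 2.39, 1.54 and 1.23 FPKM), by 1.40 ± 0.31 (adjusted p = 0.006061). In extraembryonic ectoderm it held 4.33 FPKM in the control and 5.46 and 3.72 FPKM in knockouts, and the difference of 1.08 ± 0.35 from visceral endoderm did not pass (adjusted p = 0.05237). Nr1d1 was 1.44 and 4.59 FPKM in control and 4.94 and 4.79 in knockout epiblast, and 0.536 to 1.02 FPKM in extraembryonic ectoderm (-1.37 ± 0.40, adjusted p = 0.03714). That call was lost without epiblast control replicate 2, either epiblast knockout or either extraembryonic knockout library (adjusted p = 0.0527 to 0.1109), with no filter (0.1146), in a separate fit (0.05031) and with a replicate block (0.1061). Thra, its overlapping neighbour, held 1.48 to 9.18 FPKM in epiblast and 0.125 to 1.07 in extraembryonic ectoderm. Cry1 (5.05 to 15.9 FPKM), Clock (0.480 to 2.87) and Nr1d2 (0.432 to 3.09) showed no lineage difference that passed. In all, 3 of 9 members passed for epiblast against visceral endoderm, 2 higher and 1 lower, beside 38.4% of genes, 21.6% higher and 16.8% lower. For extraembryonic ectoderm against epiblast 0 were higher and 1 lower, beside 19.6%, 9.13% higher and 10.4% lower. Against visceral endoderm extraembryonic ectoderm had 1 higher and 1 lower, beside 22.6%, 11.3% higher and 11.3% lower.

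**Figure D5:**
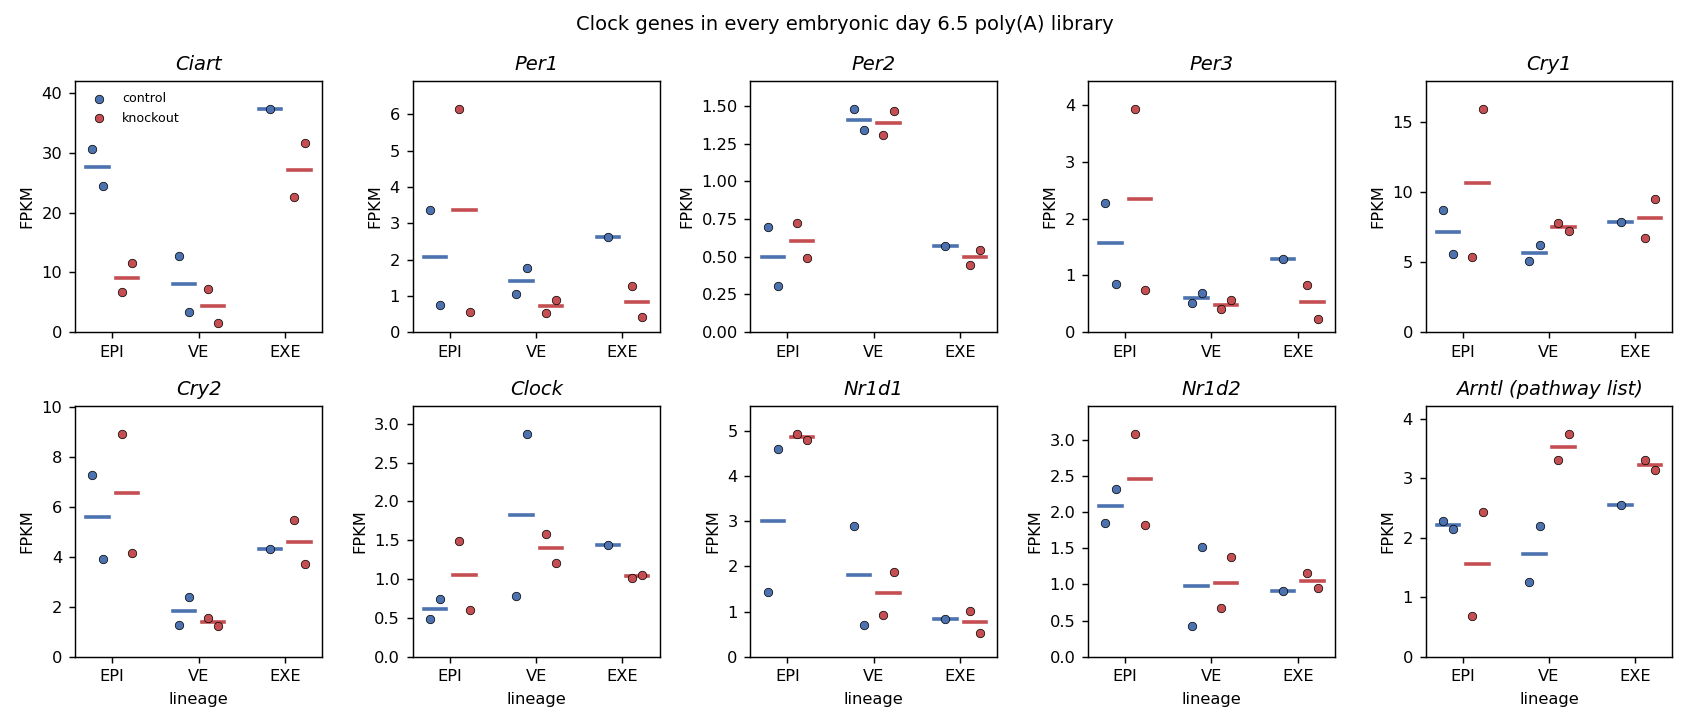
Members and Arntl in FPKM (vertical axes, each from 0 on its own scale) in each of the 11 poly(A) libraries of embryonic day 6.5, by lineage (EPI epiblast, VE visceral endoderm, EXE extraembryonic ectoderm). Points are libraries (blue control, red knockout) and lines are group means. Group means for Ciart are lowest in VE, Per2 is highest in VE, and Per1 and Per3 each show 1 high library per genotype in EPI.

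Of the pathway list at day 6.5, Arntl was at 0.691 to 3.75 FPKM in all lineages, with no lineage difference that passed (-0.33 ± 0.27 for epiblast minus visceral endoderm, adjusted p = 0.3817). Between epiblast and visceral endoderm 4 of the 16 genes tested were higher in epiblast and 1 lower, beside 21.6% and 16.8% of all genes, with Csnk1e, a kinase of PER proteins (1.61 ± 0.23, adjusted p = 0.0005363), Dbp (1.43 ± 0.26) and Timeless (1.06 ± 0.23) leading, and Fbxl21, an F-box protein of cryptochromes, was lower (-1.03 ± 0.21). Extraembryonic ectoderm had 1 of 16 genes higher than epiblast and 0 lower (9.13% and 10.4% of all genes), Bhlhe40 (2.23 ± 0.26, adjusted p = 0.000288), which was also higher there than in visceral endoderm (1.92 ± 0.26). Bhlhe40 was 6.69 FPKM in the control and 4.03 and 2.20 FPKM in knockouts of extraembryonic ectoderm, and at most 0.847 FPKM elsewhere. Usp2 (1.18 ± 0.26) and Csnk1e (0.99 ± 0.26) were higher and Fbxl21 (-0.98 ± 0.23) lower in extraembryonic ectoderm than in visceral endoderm, where 4 of 16 genes were higher and 1 lower beside 11.3% and 11.3% of all genes. That call for Csnk1e was lost without replicate 2 of either visceral endoderm group or either extraembryonic knockout library (adjusted p = 0.05834 to 0.08593), with centring (0.05221) and with a replicate block (0.08579).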

How the data were processed

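RNA was measured in 37 mouse libraries. The authors deposited 1 FPKM table per library type, with column names ending in rpkm. Trim Galore 0.6.6, STAR 2.7.9, StringTie 2.1.7 and the mm10 build are named in the submitters' processing notes, without role or order. Annotation, filters and strand setting are not given in the sources used here. The deposited column of control epiblast replicate 1 has an other unit on record because it holds 1 value below 0, which was set to 0. Values of low genes showed no single-read steps in the columns examined, so depth is unknown and no interval for counting error is given.

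Values were analysed as log2(FPKM + 1), a scale that understates changes of low genes, keeping the genes that reached 1 FPKM in 2 or more of a fit's libraries (15184 early, 13914 at day 6.5). Group means were compared with limma 3.58.1 (R 4.3.3, eBayes with trend) and Benjamini-Hochberg adjustment over all genes per contrast, at 0.05. The 26 early libraries share 1 fit, with 1 weight per stage (0.42 in early 2-cell embryos to 1.98 in MII eggs). In simulated libraries with a spread set per stage, 11 of 184 calls in early 2-cell embryos were false with these weights, and 377 of 569 with equal weights. In late 2-cell embryos 15 of 197 and 60 of 248 were false. In oocytes, MII eggs and late 1-cell embryos there were 16, 14 and 13 false calls with these weights and 0 with equal weights. Whether these weights suit the real libraries better than equal weights was not tested. The counts of members called with equal weights are given below where they differ. At day 6.5 the 11 libraries share 1 fit. In simulated data of this size, 42 of 67 genes changed by 2 log2 units were found in epiblast and 45 of 67 in visceral endoderm, as were 5 and 3 of 67 changed by 1, with 27 and 5 false calls. The changed genes all had a mean log2(FPKM + 1) above 2. The Per genes, Clock, Nr1d1 and Nr1d2 lay below that at day 6.5, so these shares do not cover them. Simulated libraries were also independent, without the correlation by replicate number given below.

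Members and lists were chosen with earlier results of these data known. All members are named. Of the list, up to 3 passing genes that changed most per direction, and Arntl, are named. Ciart is untested where MII eggs enter, and extraembryonic knockout effects are untested with 1 control. Alternatives were equal weights, a pseudocount of 0.1, no filter, means of 5 FPKM or more, scaling to TPM, median centring, separate fits, replicate blocks and leaving out each library. Positions and overlaps come from GENCODE M21, which holds 54349 of the 55401 identifiers. Tables and plots used Python 3.11.15, pandas 2.3.3 and matplotlib 3.10.9.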

Additional observations from a re-analysis of the deposited data

Results flagged for a closer look

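Among the clock pathway genes, the knockout effect on 5 genes differed between consecutive stages by the interaction test (limma adjusted p under 0.05). From late 1-cell to early 2-cell embryos the effect on Btrc rose by 0.72 ± 0.16 (adjusted p = 0.01709), a call lost without early 2-cell control replicate 1 (0.06795) or replicate 2 (0.05126), in a separate fit (0.09643) and with a replicate block (0.109). From the early to the late 2-cell stage it changed by 2.00 ± 0.26 for Dbp (adjusted p = 2.019e-05), 0.50 ± 0.15 for Arntl2 (0.02571), 0.46 ± 0.16 for Arntl (0.04453), 0.43 ± 0.13 for Csnk1e (0.01926) and -0.59 ± 0.19 for Btrc (0.03574). The value for Csnk1e was not recomputed under the alternatives. The call for Dbp was lost with a pseudocount of 0.1 (adjusted p = 0.05665) and kept in every fit without 1 library. Those for Arntl, Arntl2 and Btrc at this step were lost in 9, 6 and 7 of the 11 fits without 1 library, and each with no filter (0.1627, 0.0715 and 0.1366) and with a replicate block (0.124, 0.07119 and 0.1417). Arntl and Arntl2 also lost it with centring (0.09363 and 0.06612), Arntl2 and Btrc with TPM scaling (0.05302 and 0.08083), and Btrc in a separate fit (0.1429).

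Ciart was higher in all knockout libraries of fully grown oocytes, late 1-cell and late 2-cell embryos and lower in both knockout libraries of epiblast, where the knockout effect was -1.53. The tables were fitted apart, so this difference was not tested. Per3 was lower in all knockout late 1-cell libraries, with a difference of -0.0789, and higher in all knockout late 2-cell libraries. That difference was not tested either.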

How the results depend on the processing

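With equal stage weights, the knockout effect was called for 1 member in late 1-cell and 2 in early 2-cell embryos. The steps from oocyte to MII egg and on to the late 1-cell embryo then had 0 and 1 in controls and 1 and 0 in knockouts. A pseudocount of 0.1 gave 1 in late 2-cell embryos and 0 from oocyte to egg in controls. With no filter the late 2-cell embryos, the step from egg to late 1-cell embryo in knockouts and extraembryonic ectoderm minus epiblast each had 0. Requiring a mean of 5 FPKM, which tests fewer genes, left out Ciart, Per1, Per2, Cry2 and Nr1d2 in the early libraries. At day 6.5 it left out all members but Ciart and Cry1. Among the members still tested, it gave 0 in oocytes and 1 each in late 1-cell and late 2-cell embryos. It gave 0 from oocyte to egg in controls, 2 (controls) and 1 (knockouts) between the 2-cell stages, 1 from the late 1-cell to the early 2-cell stage in knockouts, and 1, 0 and 1 for epiblast minus visceral endoderm, extraembryonic ectoderm minus epiblast and extraembryonic ectoderm minus visceral endoderm. TPM scaling gave 4 in late 2-cell embryos and 0 from egg to late 1-cell embryo in knockouts. Centring gave 0 from oocyte to egg in controls and 4 from the late 1-cell to the early 2-cell stage in knockouts. Separate fits gave 0 and 1 for the first 2 control steps, 0 from egg to late 1-cell embryo in knockouts and 0 for extraembryonic ectoderm minus epiblast. Members left out by the filter on means could not be called there, and the cause of the other changes was not tested.

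In the early stages replicate numbers were not shown to pair libraries: deviations of same-numbered control and knockout libraries correlated at -0.08 to 0.14. At day 6.5 the correlation was 0.59 in epiblast and 0.42 in visceral endoderm, with 2 numbers each. Between lineages it was 0.51 for extraembryonic ectoderm with epiblast in knockouts and -0.30 to -0.38 for the other pairs. The main fit at day 6.5 has no term for the replicate number, so its SE and p-values leave this structure out. With the replicate number as a block within stage, 1 member was called in late 2-cell embryos, Nr1d1 having an adjusted p of 0.1001. With a block across lineages, 0 were called for extraembryonic ectoderm minus epiblast and 1 for extraembryonic ectoderm minus visceral endoderm.

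Without 1 library at a time, knockout effects were called for 2 to 3 members in oocytes, 1 to 3 in late 1-cell, 0 to 0 in early 2-cell and 0 to 1 in late 2-cell embryos, and 0 to 0 in epiblast and visceral endoderm. The control steps in order had 0 to 1, 1 to 2, 2 to 3 and 4 to 5, and the knockout steps 2 to 3, 0 to 1, 2 to 4 and 3 to 5. Differences between stages had 0 to 0. Epiblast minus visceral endoderm had 1 to 5, extraembryonic ectoderm minus epiblast 0 to 1 and extraembryonic ectoderm minus visceral endoderm 1 to 1. Among the genes named per comparison, uncalled effects changed sign for Per1 in epiblast (-0.82 to 1.37 over those fits), Arntl in epiblast (-0.92 to 0.10) and Ciart in visceral endoderm (-1.63 to 0.10). The other member values not called, over all comparisons, changed sign in 85 cases without 1 library and became called in 12, while 673 kept their verdict. Under the other settings 35 changed sign, 15 became called and 822 kept their verdict.

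Over all genes, centring moved the called genes that were higher from 593 of 2107 to 1153 of 2185 in oocytes, from 1154 of 2675 to 1521 of 2852 in late 1-cell embryos and from 941 of 2046 to 1386 of 2285 in early 2-cell embryos. TPM scaling moved them from 2588 of 5197 to 3302 of 5163 in late 2-cell embryos. No called member changed sign under TPM scaling or centring.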

Other observations

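By Pearson correlation of log2(FPKM + 1) over the 26 early libraries, which share stages and genotypes, the genes most like Ciart were Nptx2 (r = 0.90), Hsp90b1 (0.84) and Kansl1 (0.83). Those most like Per1 were Adgrb3 (0.79), Atrx (0.79) and Atp2b4 (0.78). The closest gene was Slco3a1 for Per3 (0.95), Angel1 for Cry1 (0.88), Bcl2l11 for Cry2 (0.94), Wasf3 for Clock (0.98), Tex26 for Nr1d1 (0.92) and Rasd2 for Nr1d2 (0.95). These are descriptions without a test.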
